A study of Mus musculus with 23 samples.

Results

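The genes described here encode the nuclear subunits of respiratory complex I, NADH:ubiquinone oxidoreductase, in mouse embryonic stem cells (ESCs). Members were the rows of the RNA-seq count files whose GENCODE symbol for the mm9 build starts with Ndufa, Ndufb, Ndufc, Ndufs, Ndufv or Ndufab, without the Ndufaf assembly factors. This gave 39 of 37310 rows and 38 symbols, since Ndufb8 has a pair of rows and 1 of them held 0 counts in every library. With more than 1 CPM (counts per 1000000 counts on genes) in at least 3 libraries, 38 of the 39 rows were tested among 14346 genes. RNA was measured by RNA-seq in 9 libraries, with 3 biological replicates in each of 3 groups, and occupancy of the transcription factor Zbtb11 by ChIP-seq. The question was which genes Zbtb11 binds and controls. The EtOH control group was the Zbtb11 lox/lox line with ERt2-Cre at Rosa26, given the ethanol carrier for 48 h. The Zbtb11 KO group was the same line given 250 nM of 4-hydroxytamoxifen (4OHT) for 48 h, which activates Cre and removes the exon between the loxP sites. The 4OHT control group was Zbtb11 WT/WT and Rosa26 WT and received the same dose of 4OHT for 48 h. All 3 groups derive from the E14 line and were grown without feeder cells in serum with LIF. The lox/lox cells are 1 isolated line, so that a difference of the 4OHT control from the EtOH control can come from genotype, line or treatment, which cannot be told apart, and likewise 4OHT and the loss of Zbtb11 in the KO against its own EtOH control. ChIP-seq used an antibody to Zbtb11 in 4 libraries of Zbtb11 WT/WT E14 cells, a FLAG antibody in 3 libraries of Zbtb11 FLAG/FLAG cells (FLAG-Zbtb11) and the same FLAG antibody in 2 libraries of untagged cells (FLAG control).

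Complex I takes electrons from NADH in the mitochondrial matrix, passes them through a flavin and a chain of iron-sulfur clusters to ubiquinone, and pumps protons across the inner membrane. Its N module oxidises NADH, its Q module reduces ubiquinone, and its P module, the membrane arm, pumps the protons. The core subunits of the P module are encoded by mitochondrial DNA, and all other subunits are encoded in the nucleus, translated in the cytosol, imported and joined by assembly factors into intermediates that become the finished complex. By these modules the 38 symbols fell into 10 of the N module, 6 of the Q module and 19 of the P module, 9 of them in the part of the membrane arm next to the matrix arm (proximal) and 10 in the part away from it (distal). The other 3 were kept apart. Ndufa4 is now counted with complex IV, Ndufa4l2 is its paralog and a gene known for induction by hypoxia, and Ndufab1 is the mitochondrial acyl carrier protein, which sits at more than 1 place in the complex.

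The libraries held 14301457 to 23876604 counts on genes, and the members took 29022 to 47711 of these, or 0.19 to 0.203%. The 8 ESC markers Pou5f1, Nanog, Sox2, Zfp42, Esrrb, Klf4, Utf1 and Dppa5a were all above 1 CPM in every group, with a summed level of 3621 to 4410 CPM. Markers of other cells summed to 4.65 to 10.1 CPM for the 4 genes of primitive endoderm, 3.0 to 4.91 CPM for the 3 genes of early mesoderm, 15.2 to 36.0 CPM for the 2 genes of the epiblast, 6.08 to 16.6 CPM for the neural marker Pax6 and 15.6 to 27.2 CPM for the 3 genes of fibroblasts. Libraries with the same replicate number deviated from their group means together in all 9 pairs. Libraries of replicates 2 and 3 also did so with each other, so the number sets apart mainly replicate 1. A fit with the replicate number as a block is given beside the first fit. This is done where it changes a call on a complex I gene or a count over a gene list. In whole cultures, fewer cells of a type and less RNA per cell cannot be told apart. The gene Zbtb11 itself was not analysed here.

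Levels between genes were compared per transcript length, in RPKM, the CPM divided by the length in kilobases, over the longest protein-coding transcript. In the EtOH control the level was highest for Ndufa7, an accessory subunit of the N module, at 222 ± 13.2 RPKM (SD, n = 3). Next came Ndufa4 at 170.3 ± 3.03 RPKM, and then Ndufa9, an accessory subunit of the Q module, at 86.2 ± 4.61 RPKM. The difference from Ndufa9 to the next in order, Ndufa3 at 85.6 ± 5.63 RPKM, was smaller than the spread between replicates. Ndufc2 stood 20th of 38 at 44.1 ± 1.49 RPKM, Ndufs7 22nd at 39.9 ± 1.64 RPKM and Ndufa12 28th at 30.5 ± 2.50 RPKM, so that the genes described next lie in the middle and lower part of the order before Zbtb11 is removed. At the low end were Ndufs5 at 3.91 ± 0.675 RPKM and Ndufb2 at 3.79 ± 0.265 RPKM, which did not differ beyond their spread. The longest transcript of Ndufb2 has 4371 bases, and a shorter transcript in use would give a higher level per length. Ndufs5 and Ndufb2 also have stretches near-identical to sequence elsewhere in the genome, by the limits given further on. The longest was 437 bases for Ndufs5, with 1 other place, and 444 bases for Ndufb2, with 12. Ndufab1 and Ndufb4, next above them, have such stretches too, as do genes higher in the order, among them Ndufa1 at 52.7 RPKM. Their part in the order was not tested.

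In the Zbtb11 KO against the EtOH control, 3 complex I genes fell and 0 rose, 1 in each module. Ndufc2 of the membrane arm fell by 82.2%, Ndufs7 of the Q module fell by 51.8% and Ndufa12 of the N module fell by 50.4%, while the other 35 genes did not pass the test. These were 3 of 38 genes or 7.89%, where 0.899% of all tested genes were called in the same comparison, 121 lower (0.843%) and 8 higher (0.0558%). The same 3 were called by DESeq2, which called 1.25% of all tested genes. On the log2 scale the 38 members had a median of -0.01, against -0.0007 over all tested genes.

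Ndufc2 encodes an accessory subunit of the membrane arm and lies on chromosome 7 (ENSMUSG00000030647.8, mm9 chr7:104548513-104556312, plus strand). It was at 29.7, 31.2 and 29.3 CPM in the 3 EtOH control libraries, at 3.66, 6.51 and 6.20 CPM in the KO libraries and at 32.4, 40.9 and 37.6 CPM in the 4OHT control libraries. Every KO library was below every library of both controls, and replicate 1 was the lowest of the KO libraries. The log2 fold change was -2.49 ± 0.20 (SE) against the EtOH control (adjusted p = 0.000256, edgeR) and -2.78 ± 0.21 against the 4OHT control (adjusted p = 6.54e-05). Within the replicate numbers the log2 ratio to the EtOH control was -3.04, -2.31 and -2.29. Of the 38 genes it changed most in both comparisons. No stretch of its transcript was near-identical (at least 95% over at least 100 bases) to sequence elsewhere in the genome.

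Ndufs7 encodes a core subunit of the Q module, the one that holds the last iron-sulfur cluster before ubiquinone, and lies on chromosome 10 (ENSMUSG00000020153.8, mm9 chr10:79711866-79719539, plus strand). It was at 38.04, 41.1 and 38.6 CPM in the EtOH control, 19.1, 19.1 and 20.1 CPM in the KO and 40.8, 38.5 and 38.2 CPM in the 4OHT control. The KO libraries lay close together and below all 6 control libraries, which overlapped each other. The log2 fold change was -1.05 ± 0.08 (SE) against the EtOH control (adjusted p = 0.000177, edgeR) and -1.04 ± 0.08 against the 4OHT control (adjusted p = 8.42e-05). The log2 ratios within the replicate numbers, -1.02, -1.15 and -0.99 against the EtOH control, had the same sign and similar size. Its transcript, too, had no near-identical stretch elsewhere.

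Ndufa12 encodes an accessory subunit that joins the complex late, with the N module, and lies on chromosome 10 (ENSMUSG00000020022.9, mm9 chr10:93661700-93684188, plus strand). The 3 EtOH control libraries were at 33.01, 31.6 and 36.96 CPM, the KO libraries at 17.7, 17.9 and 16.3 CPM and the 4OHT control libraries at 35.4, 36.00 and 33.98 CPM. No KO library reached the level of any control library. The log2 fold change was -1.01 ± 0.09 (SE) against the EtOH control (adjusted p = 0.000549, edgeR) and -1.05 ± 0.09 against the 4OHT control (adjusted p = 0.000205). Log2 ratios within the replicate numbers were -0.92, -0.87 and -1.23 against the EtOH control. A stretch of 496 bases of its transcript has a near-identical copy at 1 other place in the genome, and how reads from the copy were counted was not tested.

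**Figure D1:**
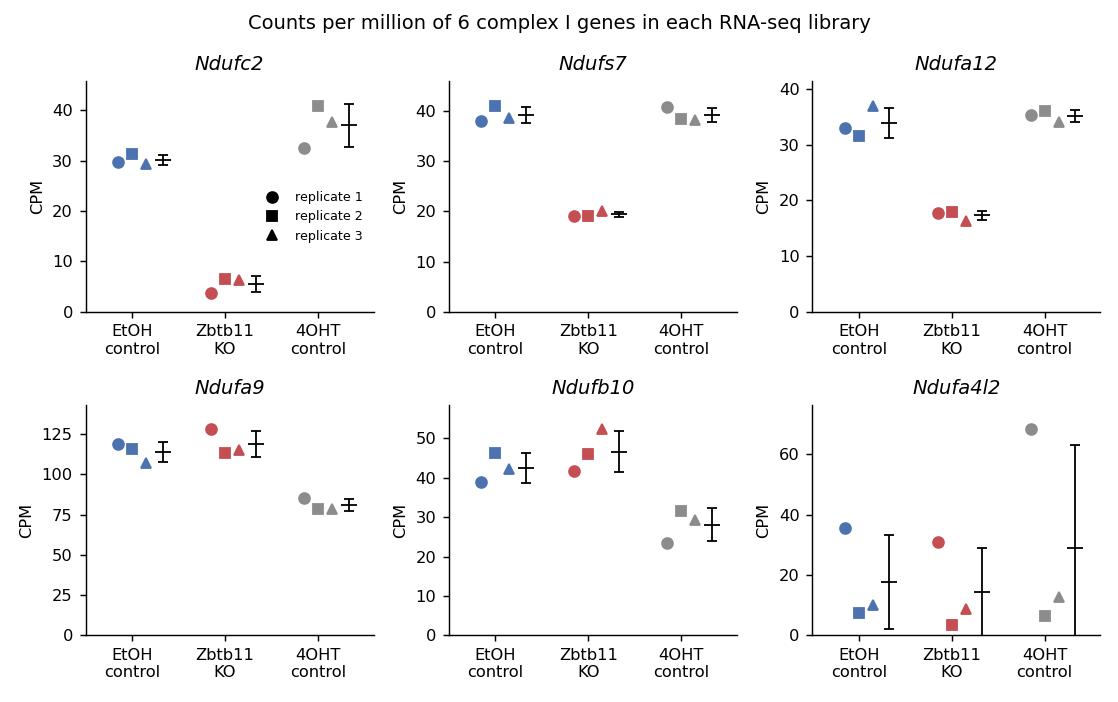
Level in CPM (y axis, linear, from 0) of 6 complex I genes in the 3 libraries of each group, with circles, squares and triangles for replicates 1, 2 and 3, and the mean with SD (n = 3) as a bar beside the points; bars are not drawn below 0. Ndufc2, Ndufs7 and Ndufa12 are below both controls in the 3 KO libraries, Ndufa9 and Ndufb10 are lower in the 4OHT control only, and Ndufa4l2 is high in replicate 1 of every group.

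All 3 calls against the EtOH control were lost when replicate 2 or replicate 3 was left out, with adjusted p values of up to 0.0655 for Ndufc2, 0.108 for Ndufs7 and 0.122 for Ndufa12 (edgeR), and 3 members still had an unadjusted p under 0.05 in each of these fits. Only 0.0896% and 0.145% of all tested genes were called there. The log2 fold change kept its sign and ranged from -2.60 to -2.30 for Ndufc2, from -1.09 to -1.003 for Ndufs7 and from -1.08 to -0.90 for Ndufa12 over all 10 alternatives. All 3 passed without replicate 1, where 1.5% of all tested genes were called, and with the replicate number as a block, where 2.25% were (1.79% lower and 0.46% higher).

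The sequence upstream of these 3 genes is shown because Zbtb11 peaks overlap it, as described further on. The centres of these peaks lay after the gene starts, outside the stretch shown. Each line holds the 250 bases before the annotated start, in mm9, on the plus strand, for chr7:104548263-104548512 (Ndufc2), chr10:79711616-79711865 (Ndufs7) and chr10:93661450-93661699 (Ndufa12). Capitals mark CGGAAG on either strand, a string within CCGGAAG, which is a motif of ETS factors such as GABP.
Ndufc2: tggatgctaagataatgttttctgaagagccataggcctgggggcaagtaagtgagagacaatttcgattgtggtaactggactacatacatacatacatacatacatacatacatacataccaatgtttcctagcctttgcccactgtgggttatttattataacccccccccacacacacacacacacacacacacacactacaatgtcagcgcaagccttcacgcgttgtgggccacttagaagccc
Ndufs7: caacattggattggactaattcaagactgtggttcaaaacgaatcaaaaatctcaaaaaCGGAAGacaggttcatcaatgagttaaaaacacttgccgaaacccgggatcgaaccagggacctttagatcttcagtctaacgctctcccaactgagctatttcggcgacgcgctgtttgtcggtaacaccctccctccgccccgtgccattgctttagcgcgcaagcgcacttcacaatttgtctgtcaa
Ndufa12: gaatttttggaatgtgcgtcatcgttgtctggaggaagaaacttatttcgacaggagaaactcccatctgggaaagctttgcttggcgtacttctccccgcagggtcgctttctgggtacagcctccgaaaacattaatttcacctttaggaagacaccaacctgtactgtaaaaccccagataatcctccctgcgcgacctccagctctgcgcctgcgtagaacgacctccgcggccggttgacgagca
In these stretches CGGAAG was found once, for Ndufs7, 191 bases before its start, and not for Ndufc2 or Ndufa12. Shorter or other forms of the motif were not searched.

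No other gene of the N module passed the test in the KO against either control. The 10 genes had a median log2 fold change of -0.04 against the EtOH control, and apart from Ndufa12 they lay between -0.13 for Ndufa2 and 0.05 for Ndufv1. Ndufs1, the largest core subunit, which carries iron-sulfur clusters, was at 125, 135 and 131 CPM in the EtOH control, 125, 132 and 146 CPM in the KO and 124, 137 and 155 CPM in the 4OHT control, and its log2 fold change in the KO was 0.01 ± 0.11 (SE) against the EtOH control. The groups overlapped. Ndufv1, which holds the flavin and binds NADH, was at 107, 116 and 109 CPM in the EtOH control, 117, 112 and 123 CPM in the KO and 119, 119 and 116 CPM in the 4OHT control. Its partner in the core, Ndufv2, was at 112, 112 and 118 CPM in the EtOH control, 112, 112 and 114 CPM in the KO and 97.8, 99.5 and 108 CPM in the 4OHT control. For both, the EtOH control and the KO overlapped. In CPM the 4OHT control libraries of Ndufv2 lay below the libraries of both other groups. With the TMM scaling used in the tests they overlapped, with 4OHT control 3 at 110.3 and KO 1 at 108.5. Ndufa7 was at 120.2, 108 and 109 CPM in the EtOH control, 113, 104 and 99.6 CPM in the KO and 129, 105 and 98.4 CPM in the 4OHT control, with overlap between all groups. Ndufa2, an accessory subunit with a thioredoxin-like fold, was at 29.04, 31.96 and 29.2 CPM in the EtOH control, 26.8, 25.2 and 32.5 CPM in the KO and 24.4, 25.7 and 25.02 CPM in the 4OHT control. Only the 4OHT control stood below the EtOH control in all its libraries. Of the accessory subunits Ndufa6, Ndufs4, Ndufs6 and Ndufv3, none passed the test in any comparison in the fit of 9 libraries, and log2 fold changes in the KO lay between -0.08 for Ndufv3 and 0.02 for Ndufs6 against the EtOH control.

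In the Q module the median of the 6 genes was -0.01 on the log2 scale for the KO against the EtOH control. Ndufs3, a core subunit, was at 41.01, 41.8 and 40.7 CPM in the EtOH control, 37.4, 37.1 and 34.7 CPM in the KO and 40.1, 39.6 and 42.3 CPM in the 4OHT control. All KO libraries were below all control libraries, but the log2 fold change of -0.22 ± 0.08 (SE) against the EtOH control did not pass (adjusted p = 1, edgeR). Against the 4OHT control it was -0.19 ± 0.08 (adjusted p = 0.201), and with the replicate block adjusted p was 0.025. A stretch of 883 bases of its transcript has a near-identical copy at 1 other place. Ndufs8, a core subunit with iron-sulfur clusters, had a log2 fold change of 0.05 ± 0.09 (SE) in the KO against the EtOH control. Ndufa5, an accessory subunit, was at 18.1, 22.2 and 20.8 CPM in the EtOH control, 18.9, 21.6 and 25.8 CPM in the KO and 15.03, 19.9 and 20.2 CPM in the 4OHT control, and in each group replicate 1 was the lowest.

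In the proximal part of the P module, the 8 genes other than Ndufc2 had log2 fold changes from -0.07 for Ndufa13 to 0.12 for Ndufs5 in the KO against the EtOH control, and none passed. Ndufa13, also known as the cell death regulator Grim19, was at 42.9, 38.1 and 40.05 CPM in the EtOH control, 41.6, 35.8 and 41.1 CPM in the KO and 47.7, 41.5 and 39.00 CPM in the 4OHT control. Ndufa1, a single-pass membrane subunit encoded on the X chromosome, was at 21.8, 22.2 and 22.2 CPM in the EtOH control, 24.6, 23.8 and 20.4 CPM in the KO and 20.6, 21.5 and 22.5 CPM in the 4OHT control. These groups overlapped. Ndufa8, a subunit of the intermembrane side, was at 35.2, 36.8 and 35.5 CPM in the EtOH control, 37.4, 37.6 and 42.8 CPM in the KO and 32.2, 31.5 and 34.6 CPM in the 4OHT control. Its KO libraries were above all control libraries in CPM. With the TMM scaling used in the tests they overlapped, with KO 2 at 37.2 and EtOH control 2 at 37.6. The change was 0.10 ± 0.09 (SE, log2) against the EtOH control, which did not pass. Ndufa10, an accessory subunit with a nucleoside kinase fold, was at 83.1, 93.02 and 95.4 CPM in the EtOH control, 86.7, 98.1 and 90.9 CPM in the KO and 103, 106 and 112 CPM in the 4OHT control, which left the 4OHT control highest. Ndufa11, a membrane subunit, was at 55.2, 59.6 and 57.2 CPM in the EtOH control, 57.9, 57.4 and 58.8 CPM in the KO and 48.7, 52.4 and 53.6 CPM in the 4OHT control. For both, the EtOH control and KO overlapped, and in CPM the 4OHT control lay outside them, above for Ndufa10 and below for Ndufa11. With TMM scaling this held for Ndufa10 only. For Ndufa11, 4OHT control 3 was then at 55.0 and EtOH control 1 at 54.3. Ndufc1, a small accessory subunit, had a log2 fold change of -0.04 ± 0.10 (SE) in the KO against the EtOH control.

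The 10 tested genes of the distal part had a median log2 fold change of 0.03 in the KO against the EtOH control, within -0.30 for Ndufb4 and 0.18 for Ndufb7, and none passed. Ndufb3, a single-pass subunit of the membrane arm, was at 24.1, 22.4 and 22.6 CPM in the EtOH control, 21.9, 18.8 and 22.3 CPM in the KO and 21.6, 22.5 and 23.2 CPM in the 4OHT control. Its KO libraries were below the EtOH control and overlapped the 4OHT control, with a log2 fold change of -0.17 ± 0.10 (SE). Ndufb4 was at 16.7, 17.3 and 17.6 CPM in the EtOH control, 15.6, 16.1 and 11.4 CPM in the KO and 14.9, 14.2 and 13.1 CPM in the 4OHT control, so that both groups that received 4OHT lay below the EtOH control. Ndufb7, a subunit of the intermembrane side, was at 38.6, 35.1 and 35.8 CPM in the EtOH control, 40.97, 41.2 and 44.6 CPM in the KO and 49.2, 42.4 and 47.5 CPM in the 4OHT control, and here both groups that received 4OHT lay above the EtOH control. Ndufb9, a subunit of the LYR family, was at 53.7, 52.9 and 45.95 CPM in the EtOH control, 55.9, 54.4 and 55.5 CPM in the KO and 62.7, 57.96 and 56.7 CPM in the 4OHT control. Every library of the 4OHT control was above every other library. Ndufb2 was at 17.5, 16.9 and 15.3 CPM in the EtOH control, 21.3, 18.2 and 17.9 CPM in the KO and 14.6, 15.9 and 18.6 CPM in the 4OHT control. Its KO libraries were above the EtOH control and overlapped the 4OHT control. Ndufb11, encoded on the X chromosome, was at 49.5, 43.3 and 43.7 CPM in the EtOH control, 48.97, 43.7 and 47.5 CPM in the KO and 52.4, 46.98 and 44.7 CPM in the 4OHT control, and its groups overlapped. Ndufb5, Ndufb6 and Ndufb8 had log2 fold changes between -0.01 and 0.06 in the KO against the EtOH control.

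**Figure D2:**
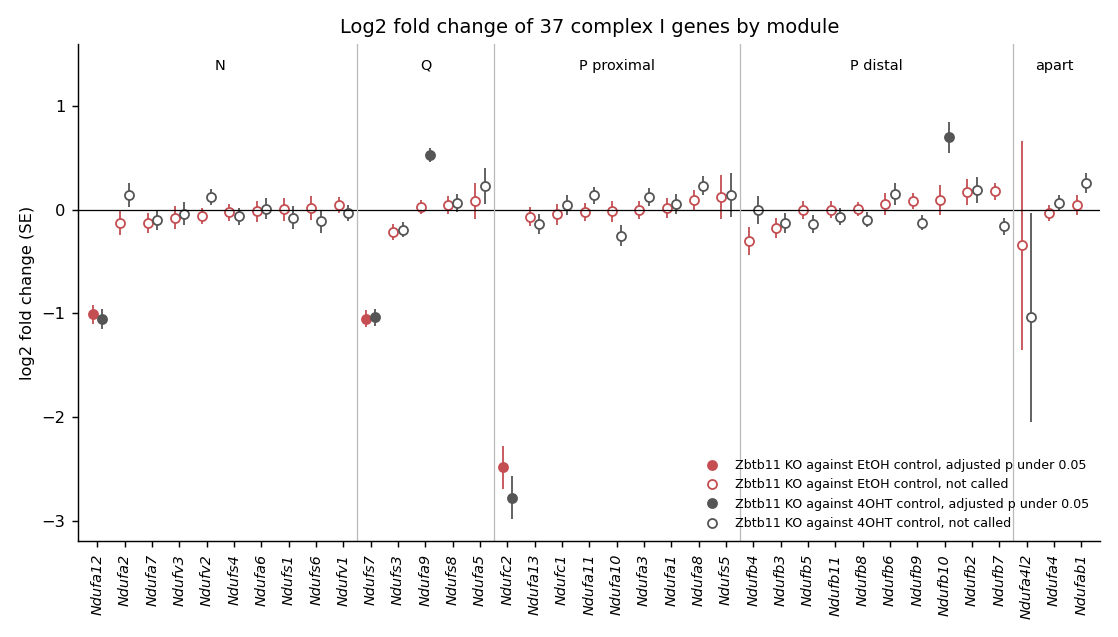
Log2 fold change (y axis) with SE of 37 of the 38 tested complex I genes in the Zbtb11 KO against the EtOH control (red) and against the 4OHT control (grey), ordered by module along the x axis; filled points passed an adjusted p of 0.05 in edgeR. Ndufa12, Ndufs7 and Ndufc2 are lower in both comparisons, Ndufa9 and Ndufb10 are higher against the 4OHT control only, and most other points lie near 0. Both comparisons use the same KO libraries.

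Of the genes kept apart, Ndufa4 was at 82.3, 85.3 and 83.8 CPM in the EtOH control, 84.1, 83.95 and 84.8 CPM in the KO and 74.96, 80.98 and 81.2 CPM in the 4OHT control. Ndufab1 was at 49.8, 47.3 and 51.1 CPM in the EtOH control, 51.4, 48.8 and 56.9 CPM in the KO and 39.7, 44.1 and 44.8 CPM in the 4OHT control, with the 4OHT control below both other groups. Ndufa4l2 was at 35.7, 7.50 and 9.98 CPM in the EtOH control, 30.8, 3.33 and 8.72 CPM in the KO and 68.2, 6.47 and 12.6 CPM in the 4OHT control. It was the most variable of the 38 genes, with replicate 1 above replicates 2 and 3 in every group, and this spread gave an SE of 0.99 to 1.01 on the log2 scale without the block. With the replicate block it was lower in the KO than in the 4OHT control (log2 fold change -0.93 ± 0.15, SE, adjusted p = 6.4e-05, edgeR), a call that was also made without replicate 1 in the fit that kept the block.

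The 4OHT control was compared with the EtOH control to see which genes differ between control cultures. Here 1 of 38 complex I genes was called (2.63%), Ndufa9, which was lower, where 4.05% of all tested genes were called, 287 lower (2.0%) and 294 higher (2.05%). Ndufa9 encodes an accessory subunit with a bound NADPH at the joint of the Q module and the membrane. Its level was 119, 116 and 107 CPM in the EtOH control, 128, 114 and 115 CPM in the KO and 85.1, 78.5 and 78.8 CPM in the 4OHT control. The EtOH control and KO overlapped, and the 4OHT control lay below both. The log2 fold change was -0.50 ± 0.07 (SE) for the 4OHT control against the EtOH control (adjusted p = 0.00679, edgeR), and within the replicate numbers it was -0.49, -0.58 and -0.45. The call was lost without replicate 2 and without replicate 3, with an adjusted p of up to 0.425, where 0.0896% and 0.165% of all tested genes were called. Ndufb10, a subunit of the distal membrane arm, had the same pattern, at 38.9, 46.4 and 42.2 CPM in the EtOH control, 41.8, 45.9 and 52.3 CPM in the KO and 23.6, 31.5 and 29.4 CPM in the 4OHT control. Its log2 fold change of -0.60 ± 0.15 (SE) missed the threshold (adjusted p = 0.0576). DESeq2 called Ndufa9, Ndufb10 and Ndufb7 here (7.89%), with 8.27% of all tested genes, and edgeR without replicate 1 called these and Ndufc2 (10.5%), with 17.1% of all tested genes. Of the markers of ESCs and other cells, Col1a2, 1 of the 3 fibroblast markers, was called and lower in the 4OHT control, while the summed CPM of that list ranged from 15.7 to 23.0 in the EtOH control and from 15.6 to 23.4 in the 4OHT control. The part of these markers in the differences was not tested.

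With the replicate number as a block, 12 complex I genes differed in the same comparison (31.6%), 7 lower and 5 higher. The share was close to that of all tested genes, of which 33.6% differed, 16.5% lower and 17.0% higher. Lower in the 4OHT control were Ndufa2 and Ndufv2 of the N module, Ndufa9 of the Q module, Ndufa11, Ndufb4 and Ndufb10 of the P module, and Ndufab1. Higher were Ndufa10, Ndufc2, Ndufb7 and Ndufb9 of the P module, and Ndufa4l2. Apart from Ndufa9, Ndufb10 and Ndufa4l2 these differences were at most 0.33 ± 0.06 (SE) on the log2 scale, as for Ndufb7 (adjusted p = 0.000422, edgeR with the block). Ndufc2 was higher by 0.29 ± 0.08 (SE, log2, adjusted p = 0.0127), and its values in the 4OHT control were above the EtOH control in all 3 replicates. The calls on Ndufa4l2, Ndufa11 and Ndufab1 were not made without replicate 1 in the fit that kept the block, which called 9 genes.

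Markers of cell state also differed between the control cultures with the block. Of the 8 ESC markers, Nanog and Utf1 were lower in the 4OHT control and Dppa5a, Klf4, Pou5f1 and Zfp42 were higher, and without the block 0 of the 8 were called by edgeR, with 3 at an unadjusted p under 0.05, and 1, Nanog, by DESeq2. In CPM their summed level ranged from 3621 to 4045 in the EtOH control, from 3691 to 4039 in the KO and from 4000.5 to 4410 in the 4OHT control, so that the ranges overlapped. Eomes, a marker of early mesoderm, Otx2, a marker of the epiblast, and Thy1, counted with the fibroblast markers, were higher in the 4OHT control with the block. The 3 early mesoderm markers had a summed level in CPM from 3.39 to 3.97 in the EtOH control, from 3.0 to 3.62 in the KO and from 4.76 to 4.91 in the 4OHT control, above all other libraries. For the 2 epiblast markers it ranged from 17.6 to 26.8, from 15.2 to 23.5 and from 23.2 to 35.97 in the same order, and the groups overlapped. The part of these differences in those of the complex I genes was not tested.

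In the KO against the 4OHT control, both of which received 4OHT, 5 of 38 complex I genes were called (13.2%), where 6.45% of all tested genes were called, 534 lower (3.72%) and 391 higher (2.73%). Ndufc2, Ndufs7 and Ndufa12 were lower, with the values given above, and Ndufa9 and Ndufb10 were higher. The log2 fold change of Ndufa9 was 0.53 ± 0.07 (SE, adjusted p = 0.00237, edgeR) and that of Ndufb10 0.70 ± 0.15 (adjusted p = 0.0244). Against the EtOH control the same KO libraries gave 0.03 ± 0.07 for Ndufa9 and 0.10 ± 0.15 for Ndufb10, and neither passed. The 3 comparisons share libraries, so their values are not independent of each other. The calls on Ndufa9 and Ndufb10 were lost without replicate 2 and without replicate 3, with adjusted p values of up to 0.196 and 0.321. The call on Ndufb10 was also lost in a fit of the compared groups alone (adjusted p = 0.0548), and that on Ndufa12 was lost without replicate 2 (adjusted p = 0.0622). Without replicate 2 and without replicate 3, 0.565% and 0.785% of all tested genes were called. Those on Ndufc2 and Ndufs7 held in all 10 alternatives. DESeq2 called the same 5, with 10.2% of all tested genes, and edgeR without replicate 1 called these and Ndufa10 (15.8%), with 18.7%. Among the markers, Eomes was lower in the KO than in the 4OHT control (-0.74 ± 0.16, SE, log2, adjusted p = 0.0287) and Col1a2 higher (1.96 ± 0.26, adjusted p = 0.0026).

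With the block, 11 genes differed between the KO and the 4OHT control (28.9%), 6 lower and 5 higher, where 34.9% of all tested genes did, 18.1% lower and 16.8% higher. Beside the 5 named, Ndufa10, Ndufs3 and Ndufa4l2 were lower and Ndufa5, Ndufa8 and Ndufab1 were higher. Apart from Ndufa4l2 these differed by no more than 0.26 ± 0.06 (SE, log2), as for Ndufab1 (adjusted p = 0.00337, edgeR with the block). Against the EtOH control the block added no member to Ndufc2, Ndufs7 and Ndufa12, while 2.25% of all tested genes were called there. In the KO against the 4OHT control the block also called 7 of the 8 ESC markers, with Dppa5a, Esrrb, Klf4, Pou5f1 and Zfp42 lower and Nanog and Utf1 higher in the KO. It further called Otx2, Eomes and Thy1 as lower and Col1a1 and Col1a2 as higher, and their part in the differences of the complex I genes was not tested. In the KO against the EtOH control 0 of these markers were called by DESeq2 or by edgeR with or without the block, with 0 at an unadjusted p under 0.05 without the block and 1 with it. The module medians against the 4OHT control were -0.05 for the N module, 0.06 for the Q module, 0.06 for the proximal and -0.08 for the distal part of the P module, all on the log2 scale, where the median of all genes was 0.00.

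Other genes of the pathway were counted from lists. Of 16 assembly factors of complex I, 1 was lower and 0 higher in the KO against the EtOH control (0.899% of all tested genes were called). This was Ndufaf1, which acts in the assembly of the membrane arm, at 15.9, 18.2 and 17.3 CPM in the EtOH control, 3.60, 4.75 and 4.76 CPM in the KO and 16.01, 18.7 and 16.5 CPM in the 4OHT control. Its log2 fold change was -2.001 ± 0.15 (SE, adjusted p = 0.000177, edgeR), so that of the subunits only Ndufc2 fell by more. Tmem70, which acts in the assembly of complexes I and V, was at 18.9, 17.5 and 17.8 CPM in the EtOH control, 14.8, 13.2 and 13.2 CPM in the KO and 21.96, 23.3 and 24.1 CPM in the 4OHT control. It passed against the 4OHT control (-0.78 ± 0.09, SE, log2, adjusted p = 0.00148), and against the EtOH control only with the block (adjusted p = 0.00404), in the fit without replicate 1 and in DESeq2. With the block, without replicate 1 and in DESeq2, Tmem70 was also higher in the 4OHT control than in the EtOH control (0.35 ± 0.08, SE, log2, adjusted p = 0.00212 with the block). In that order these fits called 33.6%, 17.1% and 8.27% of all tested genes. In the KO against the 4OHT control, Ndufaf1 and Tmem70 were lower with and without the block. With the block Ndufaf2 (adjusted p = 0.0499, edgeR) and 4930455C21Rik (adjusted p = 0.0135) were higher. Of all tested genes 34.9% were called in this comparison with the block and 6.45% without it. Of the 7 subunits encoded by mitochondrial DNA, 5 were tested and 0 were called in any comparison, by edgeR with or without the block or by DESeq2, with 0 at an unadjusted p under 0.05 in the KO against the EtOH control. Of 39 nuclear subunits of complexes II to V, 0 were called in the KO against the EtOH control by edgeR or DESeq2, with 0 at an unadjusted p under 0.05, and 0 with the block, with 4 at an unadjusted p under 0.05. Against the 4OHT control 1 of the 39, Sdha of complex II, was lower (-0.26 ± 0.06, SE, log2, adjusted p = 0.0474), where 6.45% of all tested genes were called. The block called 11 of the 39 in this comparison, 4 lower and 7 higher, where it called 34.9% of all tested genes, and the fit without replicate 1 called 5, 1 lower and 4 higher, with 18.7% of all tested genes. Between the 4OHT and EtOH controls 0 of the 39 were called by edgeR without the block, with 4 at an unadjusted p under 0.05, and 2 by DESeq2, Atp5l lower and Sdha higher. With the block 9 were called, 6 lower and 3 higher, with 33.6% of all tested genes. Of 7 tested regulators of nuclear mitochondrial genes, among them Gabpa, Nrf1 and Esrra, 0 were called in the KO against either control by edgeR with or without the block or by DESeq2, with 0 at an unadjusted p under 0.05 against the EtOH control and 1 against the 4OHT control.

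Zbtb11 occupancy was taken from the table of 7500 peaks shared by the Zbtb11 antibody and FLAG-Zbtb11, with the coverage normalised by the authors. A peak was assigned to a gene if it overlapped the stretch from 2000 bases before to 500 bases after its start. Of the 38 tested complex I genes 13 (34.2%) had such a peak, where 28.1% of all 14346 tested genes did. A peak was called Zbtb11-high if its mean coverage over the 4 antibody libraries lay above the upper quartile plus 1.5 interquartile ranges, or 308.9, which held for 857 peaks. This was so at 7 of the 38 genes (18.4%), where it was so at 5.69% of all tested genes. No member had a promoter peak in the FLAG control. Among the assembly factors 4 of 16 had a Zbtb11-high promoter peak (25.0%), Ndufaf1, Ndufaf7, Tmem70 and Tmem186, and among the nuclear subunits of complexes II to V 1 of 39 (2.56%), Atp5j. A promoter peak of any height was present at 9 of the 16 assembly factors (56.2%). The same held for 19 of the 39 subunits of complexes II to V (48.7%), so both shares were above that of the complex I genes. Among the genes with a Zbtb11-high peak were Ndufs3 of the Q module, Ndufs1 and Ndufa12 of the N module, Ndufc2 and Ndufa13 of the proximal part and Ndufb3 of the distal part of the P module.

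The peak at Ndufs3 was the highest, with coverage of 671, 895, 631 and 1185 in the 4 antibody libraries and 839, 898 and 568 in the 3 FLAG-Zbtb11 libraries, and stood 65th of 7500 by its mean. At Ndufb3 the coverage was 712, 976, 537 and 1098 with the antibody and 949.8, 945 and 405 for FLAG-Zbtb11. At Ndufs1 it was 646, 870.5, 530.4 and 1031 with the antibody and 924, 871 and 445 for FLAG-Zbtb11. In all 3 the lowest FLAG-Zbtb11 library was replicate 3. Ndufc2 had 456, 664, 499.5 and 940.2 with the antibody and 627, 614 and 424 for FLAG-Zbtb11, a rank of 291. Ndufa13 followed with 552, 719.8, 539 and 715 with the antibody and 622, 659 and 413 for FLAG-Zbtb11, and Ndufa12, at rank 369, with 410.1, 657, 446 and 821 with the antibody and 575, 583 and 346 for FLAG-Zbtb11. The libraries of these 3 genes overlapped each other in both ChIPs. The limit falls between peaks with a mean of 309.1 and 308.7, and the nearest member below it was Ndufv1 at a mean of 198.

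The 6 other peaks were lower. Ndufv1 had 210.1, 164, 210.1 and 208 with the antibody and 229.5, 212 and 213 for FLAG-Zbtb11. Ndufa7 had 130.04, 120.2, 125 and 142 with the antibody and 127, 77.5 and 88.1 for FLAG-Zbtb11, and its libraries overlapped between the ChIPs. Ndufb9 had 94.5, 57.7, 96.9 and 94.02 with the antibody and 96.6, 107 and 96.03 for FLAG-Zbtb11. Ndufb2, Ndufa4l2 and Ndufa1 had antibody means of 68.1 ± 21.03, 59.9 ± 16.04 and 53.6 ± 14.5 (SD, n = 4), and lay below the median of all 7500 peaks, 71.3. In the separate lists of peaks called for each ChIP, Ndufs7 had a promoter peak in both, 1957 bases wide with the antibody (mm9 chr10:79711295-79713251) and 1512 bases wide for FLAG-Zbtb11 (chr10:79711306-79712817), but none in the table of shared peaks, so that its coverage is not given. The same held for Ndufb5. Ndufa3 and Ndufa5 had a promoter peak only in the antibody list, and Ndufb7 and Ndufs6 only in the FLAG-Zbtb11 list.

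**Figure D3:**
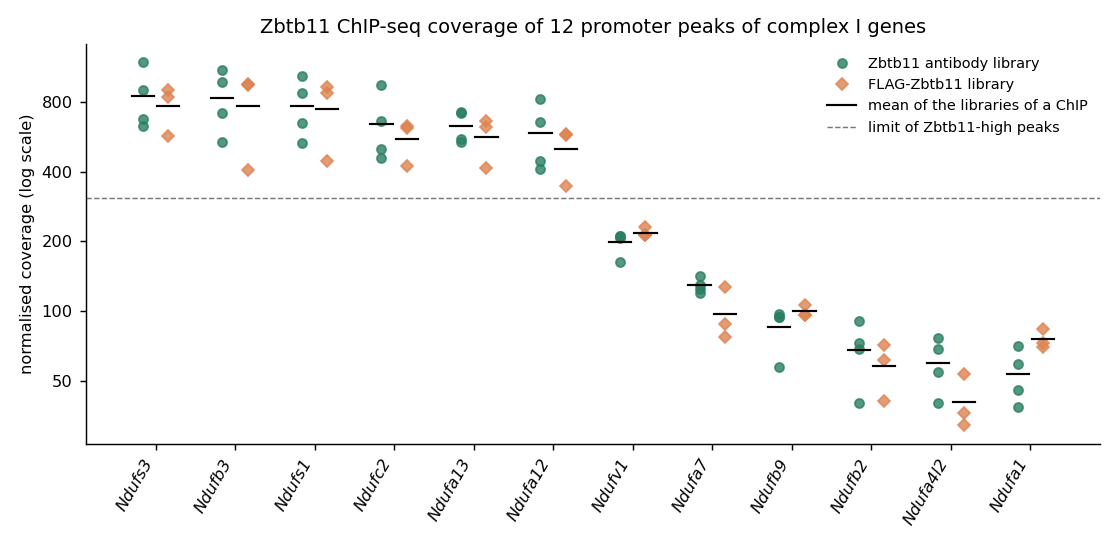
Normalised coverage (y axis, log scale) of 12 promoter peaks of complex I genes in the 4 Zbtb11 antibody libraries (circles) and the 3 FLAG-Zbtb11 libraries (diamonds), with their means as lines and the limit of 308.9 for Zbtb11-high peaks dashed. From Ndufs3 to Ndufa12 the means lie above the limit, and from Ndufv1 to Ndufa1 below it.

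Of the 7 genes with a Zbtb11-high peak, 2 (Ndufc2 and Ndufa12) were lower in the KO against the EtOH control (28.6%), where 101 of the 817 tested genes with such a peak were lower (12.4%). Their median log2 fold change was -0.17. Of the 6 genes with another peak 0 were called by edgeR or DESeq2, with 0 at an unadjusted p under 0.05, and their median was 0.03. Of the 25 genes with no promoter peak in the table of shared peaks 1 was lower, Ndufs7, and the median was 0.00. Ndufs7 did have a promoter peak in the separate lists of both ChIPs, so it cannot be taken as unbound. The peaks at Ndufs3, Ndufb3 and Ndufs1 were all higher than those at Ndufc2 and Ndufa12, and their genes had log2 fold changes of -0.22 ± 0.08, -0.17 ± 0.10 and 0.01 ± 0.11 (SE). Within the 7, therefore, the genes that fell were not those with the most coverage.

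**Figure D4:**
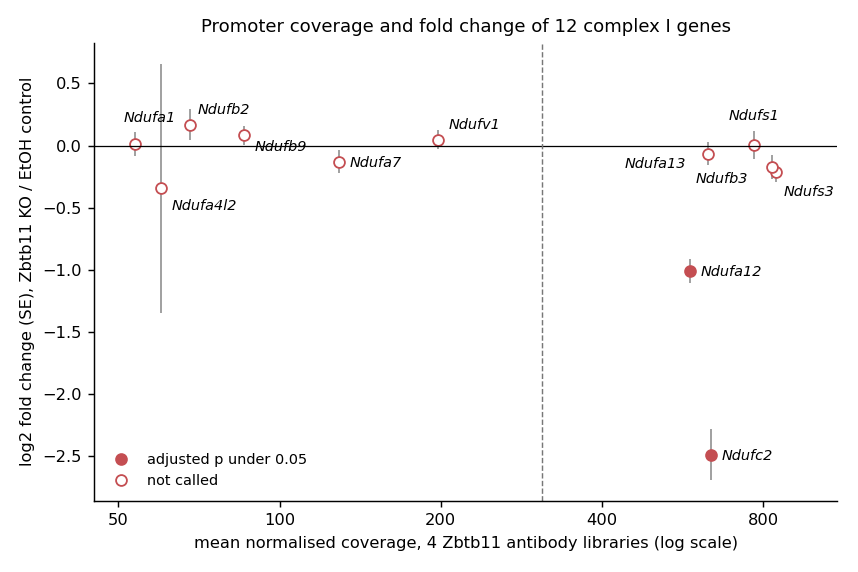
Mean normalised coverage of the promoter peak in the 4 antibody libraries (x axis, log scale) and log2 fold change with SE in the Zbtb11 KO against the EtOH control (y axis) for 12 complex I genes with a shared peak, with filled points for an adjusted p under 0.05 (edgeR) and a dashed line at the limit for Zbtb11-high peaks. Ndufc2 and Ndufa12 lie far below 0, while Ndufs1, at a higher coverage than both, lies near 0.

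The peaks sat close to the annotated starts. The centre was 46 bases after the start for Ndufc2, 24 after for Ndufa12, 72 after for Ndufs3 and 136 after for Ndufb3, and 176 bases before it for Ndufs1. For Ndufa13 the centre was 824 bases after the start of the annotated record but 98 bases from the start codon. Several of these promoters also serve a gene on the other strand. Ndufs1 starts 3 bases from Eef1b2, Ndufb3 61 bases from Fam126b, Ndufa7 29 bases from Rps28, Ndufb9 80 bases from Tatdn1 and Ndufa1 82 bases from Rnf113a1. Of these partners none passed in the KO against the EtOH control in the fit of 9 libraries, with Fam126b at -0.46 ± 0.09 (SE, log2, adjusted p = 0.057, edgeR). Fam126b passed there with the replicate block (adjusted p = 0.000259) and without replicate 1 (adjusted p = 0.0218). Against the 4OHT control it passed in the fit of 9 libraries (-0.40 ± 0.09, SE, log2, adjusted p = 0.0298). Kbtbd4, a Kelch and BTB protein gene, starts 12 bases from the centre of the Ndufs3 peak on the opposite strand, and shares 88 exon bases with Ndufs3. Kbtbd4 was at 15.0, 16.9 and 17.5 CPM in the EtOH control and 26.1, 30.1 and 32.2 CPM in the KO, and rose by 0.80 ± 0.12 (SE, log2, adjusted p = 0.0152). At this shared peak, then, Kbtbd4 rose against the EtOH control while Ndufs3 did not pass the test in that comparison.

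Motifs were searched on both strands in the 300 bases from 250 before to 50 after each start. CCGGAAG, a motif of ETS factors such as GABP, was found at 5 of the 38 genes (13.2%), where 15.7% of 14336 tested genes with a sequence held it. The shorter CGGAAG, which every CCGGAAG also contains, was found at 12 of 38 (31.6%), where 27.9% held it. These shares lay near those of all genes. CGGAAG was present at Ndufs7 (191 bases before the start), Ndufa12 (36 after) and Ndufs1 (16 before), among others. No match to it was found in the window of Ndufc2, Ndufs3 or Ndufb3. In the 300 bases around the peak centres, CCGGAAG was found at 3 of the 13 peaks, with 2 matches each at Ndufs3 and Ndufa13 and 1 at Ndufa1. CGGAAG was matched there 4 times at Ndufa13, 2 times each at Ndufa12 and Ndufs3, and 1 time each at Ndufa1, Ndufa7 and Ndufb9. A share over the peak centres of other genes was not computed. The matches at the strong peaks of Ndufs3 and Ndufa13 are shown with 11 bases on either side, on the minus strand of mm9, as the strand of both genes, with capitals for the motif or its complement, for chr2:90744888-90744916 and chr2:90744860-90744888 at Ndufs3 and chr8:72425658-72425686 and chr8:72425541-72425569 at Ndufa13.
Ndufs3, first: cccgcgtccgcCCGGAAGaagagtcactg
Ndufs3, second: gcacatttccaCTTCCGGtccgtgccctt
Ndufa13, first: ggagggactgaCTTCCGGatcgcagcaag
Ndufa13, second: tccgctggtggCCGGAAGttgcgggtcct
Each gene holds the motif once in either orientation, and neither gene passed the test in the KO in the fit without the block. With the block Ndufs3 was lower in the KO than in the 4OHT control (adjusted p = 0.025, edgeR).

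Some members could take reads from other places or lose reads that also match there. Near-identical stretches elsewhere were found for 12 of the 38 genes. These were Ndufa1, Ndufa12, Ndufab1, Ndufb2, Ndufb3, Ndufb4, Ndufb6, Ndufb11, Ndufc1, Ndufs3, Ndufs5 and Ndufs6. How reads from such stretches were counted was not tested. Exons shared with a gene on the opposite strand made up 30.2% of those of Ndufa13 (Tssk6) and 39.0% of those of Ndufb6 (2010003O02Rik), and the strand setting used in counting is not given in the sources used here.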

How the data were processed

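RNA-seq was measured in 9 libraries of E14-derived ESCs, and ChIP-seq in 4 Zbtb11 antibody, 3 FLAG-Zbtb11 and 2 FLAG control libraries. The input libraries were not used here. The deposited values are raw counts per gene from HTSeq, made by the authors from rRNA-depleted, directional paired-end libraries after trimming (TrimGalore, PRINSEQ) and alignment with STAR, in versions not given in the sources used here. Reads without a feature (25.3 to 31.6% of a library) and ambiguous reads (0.79 to 0.905%) were left out. For ChIP-seq the authors used Cutadapt for trimming, Bowtie 1.1.2 for alignment to mm9 and Picard against duplicates. Their peaks come from MACS2 with IDR over all replicates of a ChIP, and the deposited coverage (signal) table was normalised with DiffBind, on which any comparison between libraries rests.

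Counts were tested in R 4.3.3 with edgeR 4.0.16, using TMM normalisation, more than 1 CPM in at least 3 libraries, 1 quasi-likelihood fit of all 9 libraries with the group as the term, a two-sided F test, and Benjamini-Hochberg adjustment over all tested genes with a threshold of 0.05. All adjusted p values are from edgeR unless DESeq2 1.42.0 is named. CPM values are relative to the counts on genes of each library, without TMM factors, and the log2 ratios within replicate numbers include them. Alternatives were library sizes in place of TMM, DESeq2, no filter, a filter at 5 CPM, a fit of the compared groups alone, a block for the replicate number, and fits that left out each replicate. A fit without replicate 1 that kept the block was added after the data were seen. Deviations from group means correlated over genes at r of 0.43 to 0.82 in the 9 same-number pairs. In other pairs r was at most 0.526, so the ranges overlapped. Replicate 1 correlated negatively with the other numbers in every pair. Replicates 2 and 3 correlated positively with each other, and EtOH control 2 was closer to 4OHT control 3 (0.526) than to 4OHT control 2 (0.43). Deviations from a group mean sum to 0 within the group. The signs between different numbers are therefore partly fixed once replicate 1 deviates alike in all groups. The pairing is clear for replicate 1 and less clear between replicates 2 and 3. Tested on simulated data for the KO against the EtOH control (14201 genes, 198 changed), the method made 168 calls, 15 of them false, and 0 when no gene was changed. The simulated libraries were drawn independently, without the deviations that libraries of the same replicate number share in the data.

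Members are every gene of the naming rule. Values per library are given for members called in the fit of all 9 libraries, with the block or without replicate 1, for members with a promoter peak and for Ndufa4, Ndufa4l2 and Ndufb11, and the others by range. Members, modules and gene lists were chosen with earlier results of these data known, and the CGGAAG search and the genes named as neighbours of members were added afterwards. Ndufb1 was not matched by symbol and was not analysed here. A further member entered every fit and count but is not reported here singly, nor drawn. Sequences were read from mm9 with pysam 0.24.0, and near-identical stretches were found with blastn 2.17.0.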

Additional observations from a re-analysis of the deposited data

Results flagged for a closer look

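Of the 13 promoter peaks, the 4 antibody libraries held a value far from the others at 2. At Ndufv1 replicate 2 was lowest, at 164 against 208 to 210.1 in the other libraries. On the log2 scale the gap made up 0.952 of the whole range. At Ndufb9 replicate 2 was again lowest, at 57.7 against 94.0 to 96.9, with a gap of 0.942 of the range on the log2 scale. Chance gives such a value in about 1 in 20 groups tested. The 3 FLAG-Zbtb11 libraries lay between 96.0 and 107 at Ndufb9 and between 212 and 230 at Ndufv1.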

How the results depend on the processing

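The 3 calls in the KO against the EtOH control, Ndufc2, Ndufs7 and Ndufa12, were made in 8 of the 10 alternatives, and the count ranged from 0 to 3 over the fits that left out 1 replicate. In the 4OHT control against the EtOH control 1 gene was called, and 2 with library sizes in place of TMM, 3 with DESeq2, 3 with a filter at 5 CPM, and 0 to 4 with 1 replicate left out. With the replicate block this count was 12, and 9 with the block and without replicate 1. In the KO against the 4OHT control 5 genes were called, 2 to 6 with 1 replicate left out, 11 with the block, and 10 with the block and without replicate 1. Beyond these 2 comparisons the block changed no call on a member. The median log2 fold change of the members in the KO against the 4OHT control moved from -0.0148 to 0.0139 with library sizes in place of TMM, while the median of all genes moved to 0.03, by the construction of that scaling. With 1 replicate left out the medians were -0.03 to 0.01 in the KO against the EtOH control, -0.04 to 0.01 in the 4OHT control against the EtOH control and -0.04 to -0.01 in the KO against the 4OHT control. Of the values of single genes under the alternatives, 757 stayed on their side of the threshold, 39 newly passed and 14 no longer passed. The cause of the other changes was not tested. At this depth and number of libraries, 60.2% of simulated log2 fold changes of 1 and 94% of those of 2 were recovered, and smaller changes were not simulated. Unlike the data, the simulated libraries held no deviation shared by replicate number. The number of genes with a Zbtb11-high promoter peak was 7 in 8 alternatives, and 6 where at least 50% of the peak had to lie inside the window, a setting added after the data were seen, which leaves out Ndufa13.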
